A study of Mus musculus with 11 samples.

Results

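The circadian clock genes Clock, Per1, Per2, Per3, Cry1, Cry2, Nr1d1, Nr1d2, Dbp and Tef were examined in the tibialis anterior, a mouse shin muscle of mainly fast fibres, with and without its nerve. The members were taken as all probe sets that the platform annotation pairs with these 10 gene symbols. This gave 24 of the 45101 probe sets of the array, and 23 of the 24 passed the filter on low signals and were tested, among 26170 tested probe sets. Each of the 10 genes, of 12214 tested genes, was represented by its tested probe set with the highest mean signal, the brightest one.

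Total RNA was measured on 11 Affymetrix arrays. All mice carried runx1f/-, that is a floxed and a null allele of the transcription factor gene Runx1, so the controls had no wild-type pair of alleles. The groups were denervated MCK::cre muscle (3 arrays), innervated MCK::cre muscle (2 arrays), denervated control muscle (3 arrays) and innervated control muscle (3 arrays). MCK::cre expresses Cre recombinase from the muscle creatine kinase promoter, in muscle fibres, and the controls lacked it, so an effect of Cre and one of recombining Runx1 cannot be told apart. Denervation lasted 3 days by the sample titles, but the treatment note of denervated control 3 names 5 days, and calls that change without that array are given below. The age of the mice and the hour at which the muscles were taken are not given in the sources used here. Because clock transcripts cycle through the day, hour of collection and denervation or genotype cannot be told apart if they differed. The labels do not say whether replicates came from different mice, and the p-values therefore cover only the spread among these samples, which may be technical.

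As background, the clock of mammalian cells is a transcriptional feedback loop. CLOCK pairs with BMAL1, the product of Arntl, and binds E-boxes in the promoters of the Per and Cry genes, whose proteins return to the nucleus and inhibit the pair. In a second loop the nuclear receptors REV-ERB alpha and REV-ERB beta, encoded by Nr1d1 and Nr1d2, repress Arntl through ROR response elements, where ROR receptors activate. Dbp and Tef encode PAR bZIP activators that carry the rhythm to output genes through D-boxes. Skeletal muscle has its own clock, which times many of its metabolic genes.

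The promoters of the members were searched for these elements, and some of the windows that held a match are printed. Windows from 250 bases before to 50 bases after each annotated transcript start came from a set drawn from RefSeq (GRCm38.p6). That set held 13 windows of 9 of the 10 genes. It had no window for Per2, which was therefore not searched. On both strands, 4 motifs were searched in capitals: the E-box CACGTG, which reads the same on both strands, the related E-prime box CACGTT, the D-box TTANGTAA and the ROR element TAGGTCA or TGGGTCA. Of the 9 members with a window, an E-box was found in 3, an E-prime box in 3, a D-box in 1 and the ROR element in none, and no match overlapped another. Of all 32851 windows in the table, 7.15% held the E-box, 4.68% the E-prime box, 2.32% the D-box and 6.45% the ROR element, and of all 27025 genes in it, 8.09%, 5.44%, 2.72% and 7.35% had such a window. The Per3 window (minus strand, chr4:151044616-151044915) is shown because Per3 was lower after denervation and held 2 D-boxes. The Cry2 (minus strand, chr2:92434020-92434319) and Cry1 (minus strand, chr10:85185005-85185304) windows are shown because both paralogs held E-box-like matches. Their changes had opposite signs at the deposited scaling, but that of Cry1 did not pass. A window of Arntl (plus strand, chr7:113207261-113207560), the partner of Clock, is shown for the ROR element downstream of its start. The capitals mark the motif matches.
Per3: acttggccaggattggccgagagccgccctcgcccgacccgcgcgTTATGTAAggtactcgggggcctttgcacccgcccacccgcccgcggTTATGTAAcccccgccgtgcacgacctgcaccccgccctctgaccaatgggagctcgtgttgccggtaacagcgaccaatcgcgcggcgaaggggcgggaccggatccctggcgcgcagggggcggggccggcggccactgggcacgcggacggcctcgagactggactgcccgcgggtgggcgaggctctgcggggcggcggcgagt
Cry2: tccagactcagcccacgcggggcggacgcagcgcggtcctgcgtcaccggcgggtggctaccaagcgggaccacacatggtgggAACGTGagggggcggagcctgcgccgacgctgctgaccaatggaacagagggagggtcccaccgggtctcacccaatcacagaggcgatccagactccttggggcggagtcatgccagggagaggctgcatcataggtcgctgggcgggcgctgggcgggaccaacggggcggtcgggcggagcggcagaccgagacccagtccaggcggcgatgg
Cry1: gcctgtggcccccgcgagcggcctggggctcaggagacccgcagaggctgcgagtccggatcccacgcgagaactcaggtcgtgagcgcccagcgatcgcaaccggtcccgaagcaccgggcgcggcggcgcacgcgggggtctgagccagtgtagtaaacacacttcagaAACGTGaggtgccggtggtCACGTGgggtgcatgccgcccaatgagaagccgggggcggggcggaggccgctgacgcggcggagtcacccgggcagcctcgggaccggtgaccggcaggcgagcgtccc
Arntl: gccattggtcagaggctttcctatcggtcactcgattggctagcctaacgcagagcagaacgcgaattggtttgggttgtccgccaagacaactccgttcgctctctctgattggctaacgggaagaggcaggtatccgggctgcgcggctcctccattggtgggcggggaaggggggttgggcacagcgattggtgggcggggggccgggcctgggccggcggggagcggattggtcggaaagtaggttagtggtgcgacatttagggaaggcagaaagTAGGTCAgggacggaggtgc
The D-boxes of Per3 began 205 and 158 bases before the start, the E-box of Cry1 began 60 and its E-prime box 79 bases before it, and the E-prime box of Cry2 began 166 bases before it. The ROR element of Arntl began at base 31 of the transcript. The E-box of Per1 lay 166 bases before the first of its 2 starts, Tef had an E-box before each of its 2 starts, and Nr1d1 had an E-prime box 28 bases before its start. The windows of Clock, Nr1d2 and Dbp held none of these letters. A match is a description of the sequence and does not show that a factor binds there.

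**Figure D1:**
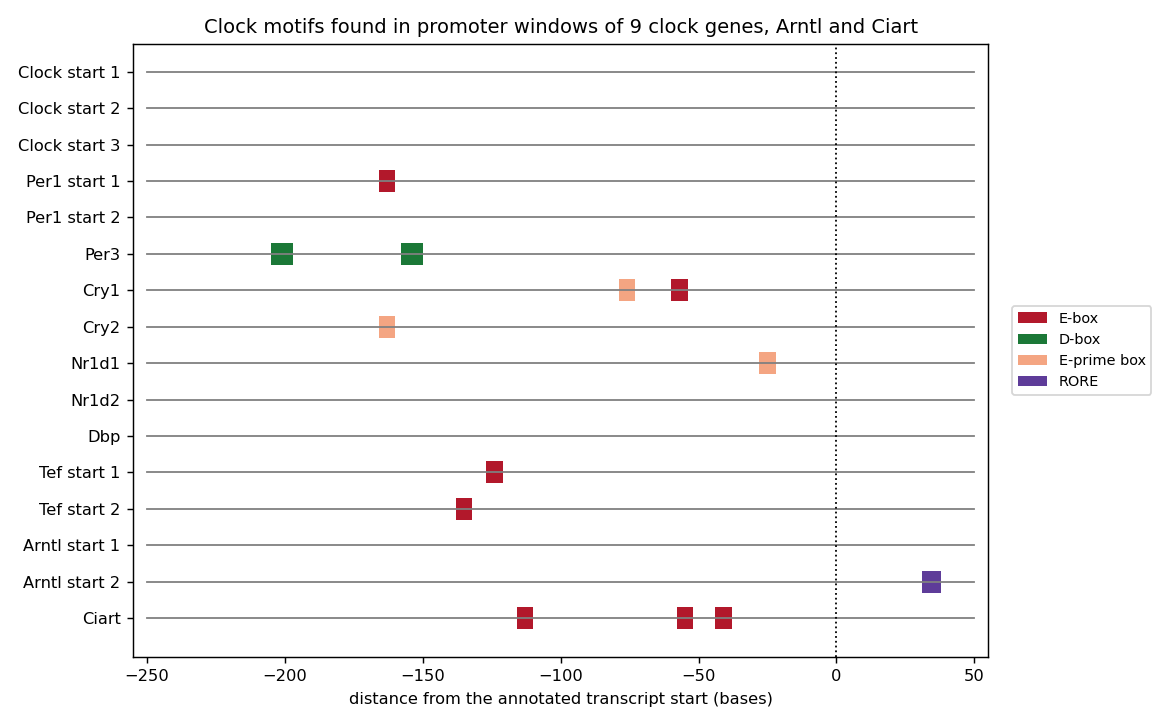
Motif matches in the promoter windows of 9 clock genes, Arntl and Ciart, one line per annotated start. The horizontal axis is the distance in bases from the transcript start (dotted line), and coloured blocks are E-boxes, E-prime boxes, D-boxes and ROR elements. Per3 is the member with D-boxes, 2 of them, while the lines of Clock, Nr1d2 and Dbp carry no block.

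Array-wide measures differed between denervated and innervated muscle and bear on every value below. Each array had been scaled to the same 2% trimmed mean of 2500, and median signals lay between 442.5 and 604.6. The hybridisation spike-in RNAs had a mean log2 signal of 13.2 to 13.7 when the muscle was denervated and of 13.8 to 14.3 when it was innervated, with no overlap. Setting them equal moved the median change of all genes to 0.46 in MCK::cre and 0.82 in control muscle, against -0.011 and -0.0052 as deposited, so the changes below are relative to a median near 0. The log2 ratio of 3' to 5' signal of the Gapdh and Actb control probe sets was -0.066 to 0.039 on denervated and -0.16 to -0.082 on innervated arrays, and its part in the results was not tested apart from a fit with it as a covariate. The labelled tissue was borne out by 5 muscle fibre markers, among them Acta1 and Ckm, with a summed signal of 780812 to 989048 in denervated and 1234400 to 1379490 in innervated MCK::cre muscle, and of 753176 to 1102230 in denervated and 1143030 to 1303110 in innervated control muscle, and 5 of the 5 fell in MCK::cre and 3 in control muscle. In a bulk sample, fewer cells of a type and less RNA per cell cannot be told apart. Of 8 macrophage markers, 6 rose in MCK::cre and 3 in control muscle, with a summed signal of 97557 to 109227 in denervated against 19417 to 20389 in innervated MCK::cre muscle, and of 73083 to 114218 in denervated against 23430 to 33084 in innervated control muscle. The denervated sums came mainly from Lgals3, Cd68, Csf1r and Lyz2, of which Lyz2 did not pass in control muscle (limma adjusted p = 0.241). Of 6 endothelial markers, 2 fell in MCK::cre and 4 in control muscle, with sums of 19119 to 20907 in denervated against 28743 to 29695 in innervated MCK::cre muscle, and of 17087 to 20511 in denervated against 29215 to 31600 in innervated control muscle. Of 2 tested granulocyte markers, S100a8 rose 56.8-fold in MCK::cre and 44.8-fold in control muscle (limma adjusted p = 1.12e-07 and 4.86e-08) from innervated signals as low as those of the bacterial trp controls, and S100a9 did not pass. Their summed signals, in denervated muscle nearly all from S100a8, were 16860.1 to 24769 in denervated against 352.7 to 688.5 in innervated MCK::cre muscle, and 7164 to 15782 in denervated against 173.4 to 346.96 in innervated control muscle. Of 6 satellite cell markers, 3 rose in each genotype, and of 3 tested Schwann cell markers, 1 fell in each. Of 6 fibroblast markers, 1 fell in MCK::cre and 0 changed in control muscle, and of 3 tested adipocyte markers, 0 changed in MCK::cre and 1 fell in control muscle. The part of these cells in the clock gene results was not tested. The targeted gene, Runx1, read 20403 to 23185 in denervated MCK::cre and 23499 to 25898 in denervated control muscle on its brightest probe set, and its position relative to the deleted part is not known here, so it checks nothing about the deletion.

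Denervation shifted the clock genes in both directions and changed the same 4 members in both genotypes. Clock and Cry2 rose, and Per3 and Nr1d2 fell, in MCK::cre and in control muscle (limma with Benjamini-Hochberg adjustment over all tested probe sets, adjusted p under 0.05). Per1, Per2, Cry1, Nr1d1, Dbp and Tef did not pass in either. With spike-in centring 4 members were higher and 0 lower in MCK::cre (Clock, Cry2, Per1 and Tef), and 5 were higher and 0 lower in control muscle (these and Per2), so Clock and Cry2 were the 2 members called under both scalings. Beside these counts, spike-in centring called 7986 of all 26170 tested probe sets in MCK::cre and 15569 in control muscle. At the deposited scaling, the 4 of 10 called in MCK::cre muscle stand beside 30.5% of all tested genes (16.7% higher, 13.8% lower), and the 4 of 10 in control muscle beside 34.4% (18% higher, 16.4% lower). The shares are thus near those of all genes, and clock genes as a list were not set apart by how many changed. The median log2 change of the 10 members was 0.032 in MCK::cre and -0.16 in control muscle, beside -0.011 and -0.0052 for all tested genes. Over their 23 tested probe sets, 6 passed in MCK::cre muscle, 3 higher and 3 lower, beside 26.3% of all (13.1% higher, 13.3% lower), and 9 passed in control muscle, 4 higher and 5 lower, beside 29.3% (14.9% higher, 14.4% lower).

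**Figure D2:**
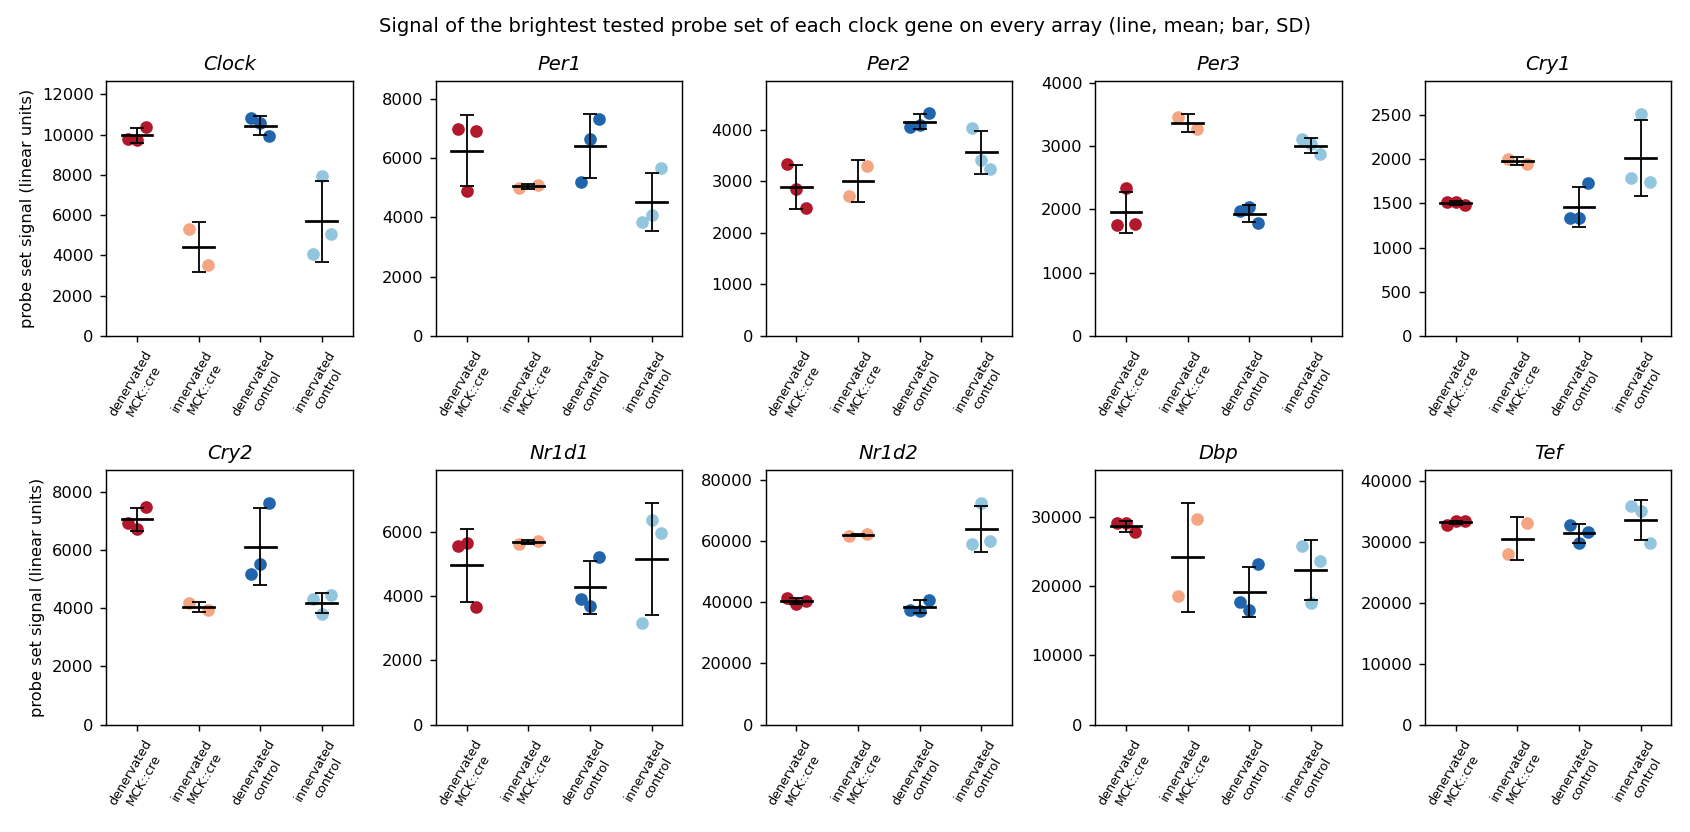
Signal of the brightest tested probe set of each of the 10 clock genes on all 11 arrays, in linear signal units with each panel on its own axis from 0. Points are arrays, lines the group means and bars the SD. The denervated points of Clock and Cry2 lie above, and those of Per3, Cry1 and Nr1d2 below, every innervated point.

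Clock, which encodes the bHLH-PAS transcription factor that pairs with BMAL1, had the highest log2 change of the 10 members in both genotypes. Its signals were 9770.4, 9737 and 10383 on the denervated MCK::cre arrays, against 5298 and 3546 on the innervated MCK::cre arrays. They were 10832, 10588 and 9918 on the denervated control arrays, against 4049, 7951 and 5059.9 on the innervated control arrays. All 6 denervated arrays lay above all 5 innervated ones, the denervated arrays were close together, and innervated control 2 was the highest of the innervated. The log2 change was 1.20 ± 0.24 (SE) in MCK::cre muscle, a 2.29-fold rise (limma adjusted p = 0.00276), and 0.93 ± 0.22 in control muscle, a 1.91-fold rise (limma adjusted p = 0.00546). Its 3 other probe sets had log2 changes of 0.57 to 0.88 in MCK::cre muscle, where 1 passed, and of 0.61 to 0.95 in control muscle, where 2 passed. Without innervated MCK::cre 2, which leaves 1 innervated MCK::cre array that is assumed to vary like the other groups, the change in MCK::cre muscle was 0.91 (limma adjusted p = 0.0513).

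Of the period genes, whose proteins form the inhibitory complex with the cryptochromes, only Per3 passed in the main fit. Differences among the period genes were not tested. Per3 fell: its signals were 1748, 2330.4 and 1773 on the denervated MCK::cre arrays, against 3459 and 3262 on the innervated MCK::cre arrays. They were 1970.3, 2041 and 1777 on the denervated control arrays, against 3104, 3035 and 2869.9 on the innervated control arrays. Every denervated array lay below every innervated one. The log2 change was -0.79 ± 0.17 (SE) in MCK::cre muscle (limma adjusted p = 0.00434) and -0.64 ± 0.15 in control muscle (limma adjusted p = 0.00696), and with spike-in centring -0.32 and 0.19, against medians of all genes of 0.46 and 0.82. Both calls ended with spike-in centring (limma adjusted p = 0.326 in MCK::cre and 0.423 in control) and with the 3' to 5' ratio as covariate (0.106 and 0.127), and that in MCK::cre muscle with median scaling (0.0823). Of its 4 other tested probe sets, all had negative changes in both genotypes, and 1 passed in MCK::cre and 2 in control muscle. The probe set with the lowest signals (134.6 to 602.6 over the 11 arrays) was above its array's median on 1 array and was not tested, and its signals overlapped those of the trp controls (13.8 to 440), which detect a bacterial RNA.

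Per1, a period gene with an early response to light and hormones, had 6968, 4881 and 6904 signal units in denervated MCK::cre muscle, against 4991 and 5099 in innervated MCK::cre muscle. In control muscle it had 5205, 6654 and 7328 when denervated, against 3853, 4084 and 5648 when innervated. The groups overlapped in both genotypes, through denervated MCK::cre 2 and through denervated control 1. The log2 change was 0.29 ± 0.22 (SE) in MCK::cre (limma adjusted p = 0.352) and 0.50 ± 0.19 in control muscle (limma adjusted p = 0.0691). Whether control arrays of equal replicate number are pairs is not known. With the replicate number as a block in the 6 control arrays the control change passed (limma adjusted p = 0.0252), as it did with the block in all arrays (0.0459), without denervated control 1 (0.0417) and without innervated control 3 (0.024). Per2, its close relative, averaged 2889.98 ± 431.7 in denervated and 3007 ± 409 in innervated MCK::cre muscle, and 4158 ± 143 in denervated and 3564 ± 415 in innervated control muscle (SD, n = 3, 2, 3 and 3). Its log2 changes were -0.061 ± 0.18 in MCK::cre (limma adjusted p = 0.829) and 0.23 ± 0.16 in control muscle (limma adjusted p = 0.313). Its 2 other probe sets changed by -0.52 and -0.089 in MCK::cre muscle and by -0.22 and -0.043 in control muscle, and none passed.

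Of the cryptochromes, the main repressors of the CLOCK and BMAL1 pair, only Cry2 passed in the main fit. The difference between the changes of the cryptochromes was not tested. Cry2 rose: its signals were 6913, 6726 and 7485 on the denervated MCK::cre arrays, against 4159.9 and 3929 on the innervated MCK::cre arrays. They were 5179, 5505 and 7619 on the denervated control arrays, against 4306, 3795 and 4437 on the innervated control arrays. No denervated array overlapped an innervated one, and denervated control 3, the array whose note names 5 days, was the highest of all 11. The log2 change was 0.80 ± 0.18 (SE) in MCK::cre muscle, a 1.74-fold rise (limma adjusted p = 0.00496), and 0.53 ± 0.16 in control muscle, a 1.44-fold rise (limma adjusted p = 0.023). In control muscle the call ended without denervated control 3 (log2 change 0.36, limma adjusted p = 0.0955) and without innervated control 2 (0.46, limma adjusted p = 0.0562), and in a fit on only the 6 control arrays (limma adjusted p = 0.0718). It ended in both genotypes with the 3' to 5' ratio as covariate (limma adjusted p = 0.171 in MCK::cre and 0.361 in control). Cry1 had 1518, 1519.7 and 1479.9 signal units in denervated MCK::cre muscle, against 2008 and 1945 in innervated MCK::cre muscle. In control muscle it had 1337, 1333 and 1727 when denervated, against 1785, 2514 and 1743 when innervated. The denervated arrays all lay below the innervated ones, by little between denervated control 3 and innervated control 3. The log2 changes were -0.39 ± 0.20 in MCK::cre (limma adjusted p = 0.175) and -0.44 ± 0.18 in control muscle (limma adjusted p = 0.0826), and without denervated control 3 the control change passed (-0.57, limma adjusted p = 0.0482). With spike-in centring the Cry1 changes were 0.085 in MCK::cre and 0.38 in control muscle, against medians of all genes of 0.46 and 0.82. Each cryptochrome had 1 probe set.

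Of the REV-ERB receptors, which repress Arntl, Nr1d2 fell and Nr1d1 did not pass. Nr1d2 had 41292, 39588 and 40534 signal units in denervated MCK::cre muscle, against 61856 and 62368 in innervated MCK::cre muscle. In control muscle it had 37590.1, 37092 and 40911 when denervated, against 59115, 72654 and 59972 when innervated. The gap between the denervated and innervated arrays was wider than the spread within any group. The log2 change was -0.62 ± 0.13 (SE) in MCK::cre muscle, 1.53-fold lower (limma adjusted p = 0.0035), and -0.72 ± 0.12 in control muscle, 1.65-fold lower (limma adjusted p = 0.000403). With spike-in centring these values were -0.14 and 0.10, against medians of all genes of 0.46 and 0.82, so the gene lay below that median but both calls ended (limma adjusted p = 0.622 in MCK::cre and 0.609 in control). In MCK::cre muscle the call also ended with median scaling (limma adjusted p = 0.159), with the 3' to 5' ratio as covariate (0.0944) and with the mean over both probe sets (0.0643). Its other probe set changed by -0.94 in each genotype with wide errors of 0.54 and 0.49 and did not pass (limma adjusted p = 0.222 and 0.173). Nr1d1 had 5574, 5651 and 3647 signal units in denervated MCK::cre muscle, against 5628 and 5717 in innervated MCK::cre muscle. It had 3909, 3687 and 5211 in denervated control muscle, against 3159.6, 6357 and 5950.4 in innervated control muscle, so the groups overlapped. Its log2 changes were -0.22 ± 0.29 in MCK::cre (limma adjusted p = 0.603) and -0.22 ± 0.26 in control muscle (limma adjusted p = 0.563). The difference between the changes of the receptors was not tested.

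The PAR bZIP output genes did not pass on their brightest probe sets. Dbp, the albumin D-box binding protein and a strongly cycling transcript in many tissues, had 29186, 29111 and 27776 signal units in denervated MCK::cre muscle, against 18640 and 29772 in innervated MCK::cre muscle. In control muscle it had 17710.3, 16585 and 23230.3 when denervated, against 25874, 17544 and 23644 when innervated. The groups overlapped in both genotypes, and the innervated arrays differed from each other by more than the group means did. The log2 changes were 0.28 ± 0.22 (SE) in MCK::cre (limma adjusted p = 0.364) and -0.22 ± 0.20 in control muscle (limma adjusted p = 0.448). The other Dbp probe set changed by 0.17 and -0.13, and the suffix of the brightest one marks a design that can bind related transcripts. Tef, thyrotroph embryonic factor, averaged 33270 ± 308 in denervated and 30613 ± 3580 in innervated MCK::cre muscle, and 31441 ± 1537 in denervated and 33650 ± 3294 in innervated control muscle (SD, n = 3, 2, 3 and 3). Its log2 changes were 0.12 ± 0.13 in MCK::cre (limma adjusted p = 0.525) and -0.094 ± 0.12 in control muscle (limma adjusted p = 0.605). A Tef probe set of low signal fell in control muscle (-0.93 ± 0.24, limma adjusted p = 0.0111), where it had 521.7, 489.4 and 651.8 signal units when denervated, against 1214, 1086 and 906.9 when innervated. In MCK::cre muscle that probe set changed by -0.31 ± 0.27 (limma adjusted p = 0.433). Another Tef probe set changed by -0.39 ± 0.58 in MCK::cre and -0.094 ± 0.52 in control muscle (limma adjusted p = 0.658 and 0.917), and differences between the probe sets were not tested.

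**Figure D3:**
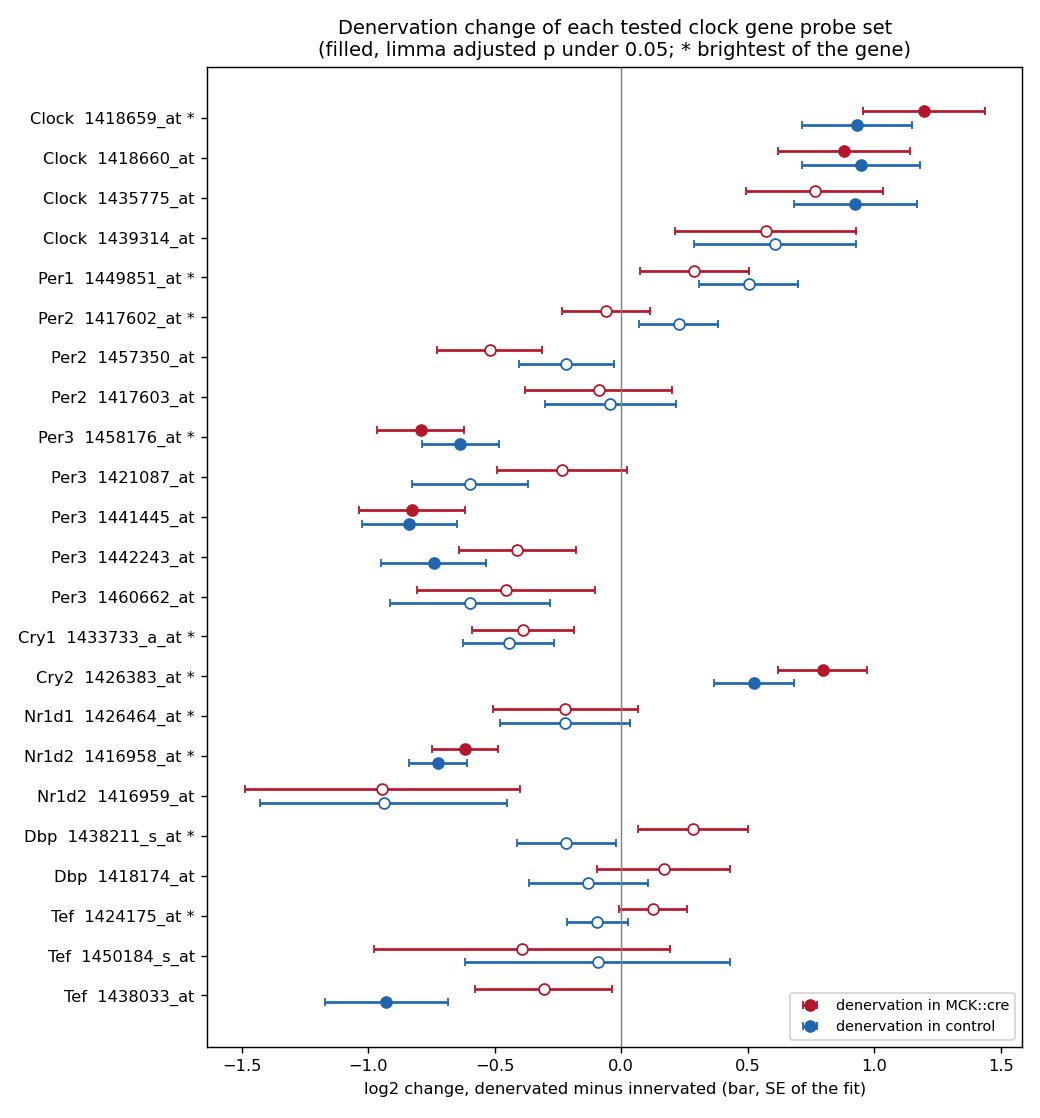
Log2 change of each of the 23 tested clock gene probe sets, denervated minus innervated, in MCK::cre and in control muscle. Bars are the SE of the fit, filled points have a limma adjusted p under 0.05 and an asterisk marks the brightest probe set of a gene. All 4 Clock probe sets lie right of 0 and all 5 tested Per3 probe sets left of it in both genotypes, while Dbp and Tef lie near 0 on their brightest probe sets.

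Denervated and innervated arrays were also compared as single values, permuting the denervation label within each genotype (exact two-sided permutation test, 200 arrangements, smallest p 0.005, not adjusted). In this exact permutation test Clock (mean log2 difference 1.07), Cry2 (0.66), Per3 (-0.71), Nr1d2 (-0.67) and Cry1 (-0.42) reached p = 0.005, the smallest it can give, and Per1 (0.40) had p = 0.045. Over both genotypes 6 of 10 members had a p under 0.05, 3 higher and 3 lower, beside 52.4% of all tested genes (27.4% higher and 25% lower). The 6 denervated and 5 innervated arrays did not overlap for 5 of 10 members, 2 higher and 3 lower, beside 31.9% of all tested genes (17.2% higher and 14.7% lower). Per2 (p = 0.44), Nr1d1 (p = 0.355), Dbp (p = 0.82) and Tef (p = 0.845) stayed above the threshold in this exact permutation test.

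Genotype was then compared at equal innervation. In denervated muscle none of the 10 members passed between MCK::cre and control (limma, 0 calls), beside 2.19% of all tested genes. An unadjusted limma p under 0.05 was found for 2 members there, beside 1527 of all 12214 tested genes. In innervated muscle none passed (limma, 0 calls), beside 0% of all, and 0 had an unadjusted p under 0.05, beside 461 of 12214. The difference between the denervation changes of the 2 genotypes passed for none either (limma interaction, 0 calls), beside 0.262% of all. Here 0 members had an unadjusted p under 0.05, beside 997 of 12214 tested genes. The members with an unadjusted p under 0.05 in denervated muscle were Dbp and Per2, on opposite sides. Dbp differed by 0.60 ± 0.20 (log2, SE, limma adjusted p = 0.204), with 28691 ± 794 signal units in denervated MCK::cre and 19175 ± 3557 in denervated control muscle (SD, n = 3 each). Its other probe set had 20001 ± 1962 in denervated MCK::cre and 15256 ± 1658 in denervated control muscle, a difference of 0.39 ± 0.24 (limma adjusted p = 0.595). In a fit on only the 6 denervated arrays the brightest Dbp probe set passed (0.60 ± 0.13, limma adjusted p = 0.0453). Its difference was the same there and only the error was smaller. The share of all genes called in that fit is not given here. In the main fit the denervation changes of this probe set differed between the genotypes by 0.50 ± 0.29 (limma adjusted p = 0.763). Per2 differed by -0.53 ± 0.16 (limma adjusted p = 0.141), with 3342, 2847 and 2481 in denervated MCK::cre against 4058, 4094 and 4321 in denervated control muscle. Its 2 other probe sets differed by 0.045 and -0.11, and with spike-in centring the brightest one passed (-0.91, limma adjusted p = 0.0333). That centring moved the median difference of all genes to -0.37, against 0.012 as deposited. It called 1396 of 26170 tested probe sets, against 478 as deposited. The genotype differences of the 4 members that changed with denervation were between -0.068 and 0.23 in denervated muscle, with errors of 0.12 to 0.22.

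The other clock genes, in lists of partners, modifiers and cycling genes, were counted in the same fits. Of 11 partners and repressors of the loop, 8 were tested: 1 rose and 4 fell in MCK::cre muscle, and 2 rose and 2 fell in control muscle. Of all tested genes, 30.5% were called in MCK::cre and 34.4% in control muscle. Arntl, the partner of Clock, rose: it had 2369.9, 4746 and 4365 signal units in denervated MCK::cre muscle, against 1599.8 and 1092 in innervated MCK::cre muscle. In control muscle it had 6349, 4748 and 3070.2 when denervated, against 1182, 1655 and 1004 when innervated. All denervated arrays lay above all innervated ones, and the log2 change was 1.46 ± 0.35 (SE) in MCK::cre (limma adjusted p = 0.00763) and 1.84 ± 0.31 in control muscle (limma adjusted p = 0.00061). Rora, a ROR receptor that activates Arntl, rose in control muscle (0.56 ± 0.14, limma adjusted p = 0.00968) and changed by 0.37 ± 0.16 in MCK::cre muscle (limma adjusted p = 0.104). Hlf, the PAR bZIP relative of Dbp and Tef, changed by -0.55 ± 0.25 in MCK::cre (limma adjusted p = 0.126) and fell by 1.27 ± 0.22 in control muscle (limma adjusted p = 0.000811). Bhlhe41, a repressor that competes at E-boxes, fell by 2.15 ± 0.32 in MCK::cre (limma adjusted p = 0.0003) and changed by -0.77 ± 0.29 in control muscle (limma adjusted p = 0.0588). Its signals were 189.2 to 269.4 in denervated and 910.7 to 1353 in innervated MCK::cre muscle. The denervated signals lay within the range of the trp controls and the innervated ones above it, so the size of the fold is uncertain. The difference between the genotypes' changes did not pass for Hlf (0.73 ± 0.33, limma adjusted p = 0.643) or Bhlhe41 (-1.38 ± 0.43, limma adjusted p = 0.338). Named after their values were seen, Nfil3, a repressor at D-boxes, fell in both genotypes (-1.23 and -1.28, limma adjusted p = 0.0307 and 0.0125), and Ciart, a repressor of the CLOCK and BMAL1 pair, and Arntl2, at signals mostly within the trp control range, fell in MCK::cre muscle (-0.67 and -2.16, limma adjusted p = 0.0311 and 0.0492).

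Of 18 genes whose products modify clock proteins, 16 were tested, and 3 rose and 4 fell in each genotype. Csnk1d, a kinase that phosphorylates PER proteins, measured by a probe set whose suffix marks possible cross-hybridisation, rose by 1.11 ± 0.15 in MCK::cre and 1.03 ± 0.13 in control muscle (log2, SE, limma adjusted p = 0.000138 and 7.12e-05). Ddb1, an adaptor of cullin ubiquitin ligases, rose by 1.11 ± 0.16 and 1.01 ± 0.14 (limma adjusted p = 0.000185 and 0.000121). Prkaa2, the catalytic subunit of AMPK that prevails in muscle, fell by 1.04 ± 0.16 in MCK::cre and 1.42 ± 0.14 in control muscle (limma adjusted p = 0.000359 and 7.95e-06). Nampt, the enzyme that limits NAD salvage and is itself a clock output, fell by 1.42 ± 0.16 and 1.30 ± 0.14 (limma adjusted p = 2.79e-05 and 1.56e-05). Csnk1e, the other PER kinase listed, changed by 0.24 ± 0.16 in MCK::cre and -0.082 ± 0.14 in control muscle (limma adjusted p = 0.28 and 0.712). Of 15 genes that cycle in many tissues or in muscle, 14 were tested, with Usp2 in both lists. In MCK::cre muscle 6 rose and 3 fell, and in control muscle 4 rose and 4 fell (3 without denervated control 3). Cdkn1a, a cell cycle inhibitor, rose by 3.94 ± 0.19 and 3.96 ± 0.17, Id2, an inhibitor of bHLH factors, by 2.55 ± 0.34 and 2.71 ± 0.30, and Tspan4, a tetraspanin, by 1.98 ± 0.20 and 1.45 ± 0.18. Ucp3, a mitochondrial carrier of muscle, fell by 1.44 ± 0.25 in MCK::cre and 1.48 ± 0.22 in control muscle (log2, SE, limma adjusted p of these 4 genes at or below 0.000876). The medians of the lists were -0.61, -0.085 and -0.14 in MCK::cre and -0.29, -0.077 and -0.038 in control muscle, beside -0.011 and -0.0052 for all genes. The share of calls in each list lay above the 30.5% and 34.4% of all genes given above. The lists were chosen with earlier results of these data known, and this difference in shares was not tested. Between the genotypes none of these genes passed except Tspan4 in denervated muscle (0.79 ± 0.18, limma adjusted p = 0.0459).

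**Figure D4:**
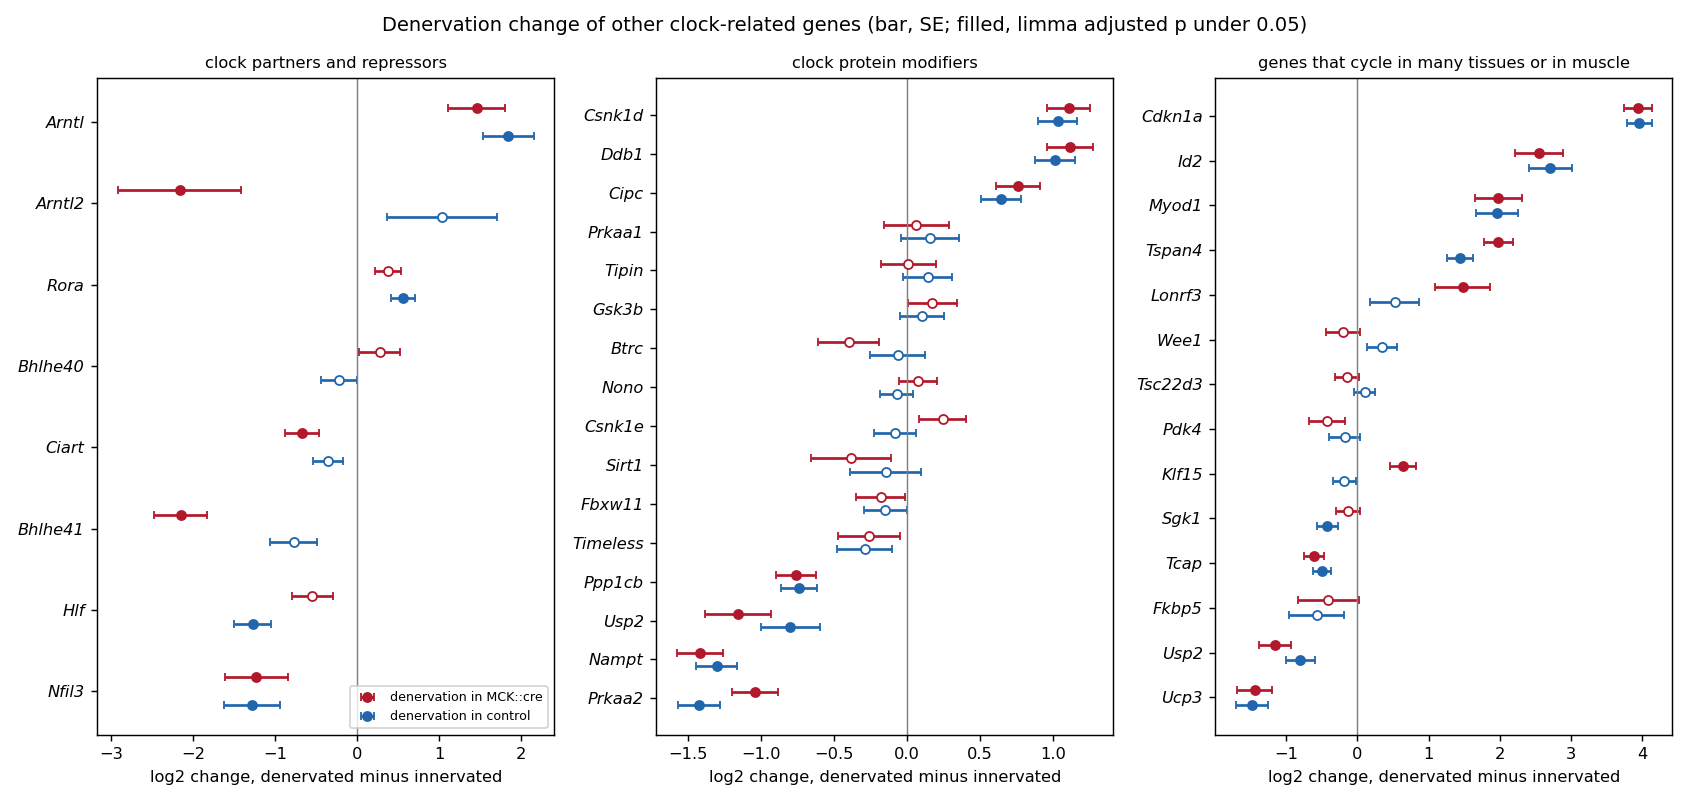
Log2 change, denervated minus innervated, of the tested genes of the lists of clock partners and repressors, clock protein modifiers and cycling genes, in MCK::cre and in control muscle. Bars are the SE of the fit and filled points have a limma adjusted p under 0.05. Arntl and Csnk1d lie right of 0 in both genotypes, and Nfil3, Nampt, Prkaa2 and Ucp3 lie left of it.

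The arrays of one group were compared for joint movement of the members. Deviations of the log2 signal from the group means were correlated over the 11 arrays for the 45 pairs of members, with exact permutation of the arrays within groups over all reorderings (smallest p 0.00231). Of the 45 pairs, 22 had a positive r, 2 had an unadjusted p under 0.05 and 0 passed adjustment over the pairs (lowest adjusted p 0.417). Clock and Dbp ran opposite to each other (Pearson r = -0.86, exact permutation p = 0.00926, Spearman rho = -0.90, exact permutation p = 0.0116, adjusted p = 0.417 for r and 0.521 for rho), and r was -0.90 without the 2 arrays farthest from the median of Clock. Per1 and Per3 followed (r = -0.77, exact permutation p = 0.0208, rho = -0.74, exact permutation p = 0.0394, adjusted p = 0.469 and 0.677), with r of -0.72 without 2 arrays. These values hold for the brightest probe set of each gene. Deviations of the other Clock probe sets correlated with its brightest one at 0.96, -0.0056 and 0.60, and that of Dbp at 0.94. The other Per3 probe sets, with the untested one, reached only -0.31 to 0.23, so the pair values need not describe the genes. Cry1 and Nr1d2 had the highest r (0.95, exact permutation p = 0.081, rho = 0.85, exact permutation p = 0.0903, adjusted p = 0.799 and 0.677), with r of 0.85 without 2 arrays, and both were highest on innervated control 2.

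**Figure D5:**
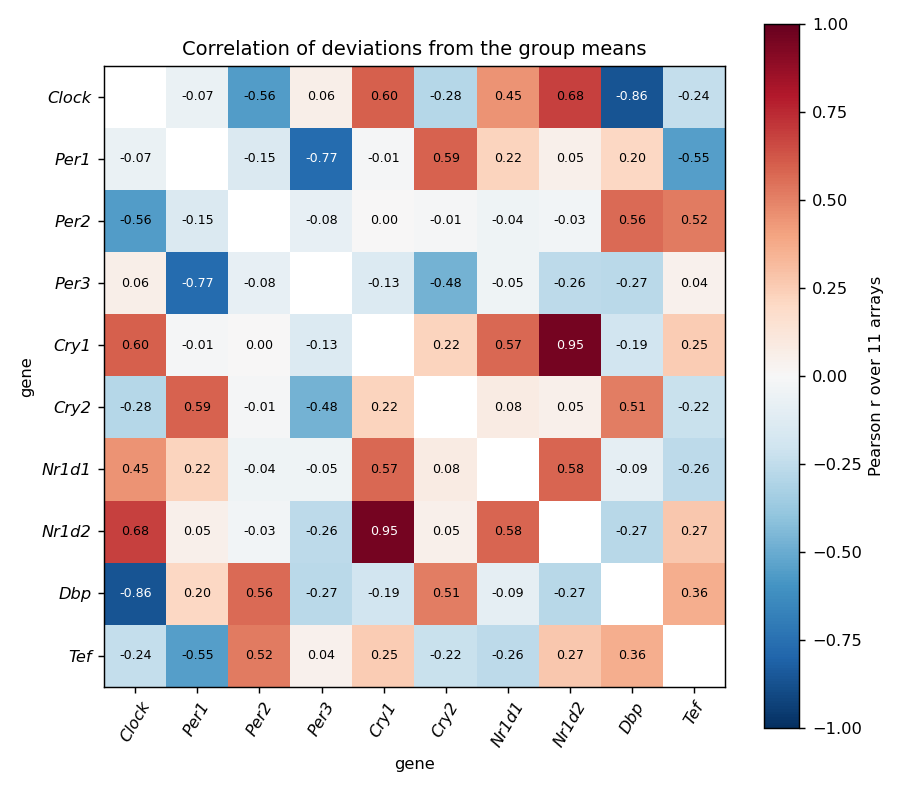
Pearson correlation, over the 11 arrays, of deviations of the log2 signal from the group means for the 45 pairs of the 10 clock genes, with r printed in each cell. Red cells are positive and blue cells negative. Clock and Dbp (-0.86) and Cry1 and Nr1d2 (0.95) are the darkest cells, and the Per, Nr1d, Dbp and Tef genes form no common block.

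The genes most like Dbp in these deviations were no member. Among 12213 other tested genes, the highest r belonged to Vegfb, Pde4b, Pf4, Cox7a1 and Cnppd1 (0.97 to 0.98) and the lowest to Tent2, 5730419F03Rik, Usp32, Cdadc1 and Alkbh8 (-0.99 to -0.97). In that order Clock was at rank 12075 and Arntl at rank 11202 (r = -0.67), both near the negative end. Per2 was at rank 2239 (r = 0.56), Tef at 3702 (r = 0.36), Hlf at 2803 (r = 0.49), Per3 at 8415 (r = -0.27) and Nr1d1 at 7083 (r = -0.091), so the members were spread over the order. These correlations describe 11 arrays with 7 degrees of freedom after the group means and share each array's depth and scaling.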

How the data were processed

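The 11 arrays gave probe set signals in linear intensity units, as deposited by the authors in the value table of the series; by its values each array was scaled to one trimmed mean, with software not given in the sources used here. Groups came from the sample titles. The scale of the fits was log2(value + 16) with no other normalization. A probe set was tested if its signal exceeded the array median on 2 or more arrays, without the 64 Affymetrix control probe sets. The platform annotation gave 34958 probe sets exactly 1 symbol, 932 several and 9211 were not listed. Group means over the 11 arrays were fitted with limma 3.58.1 in R 4.3.3 (eBayes with trend) and adjusted by Benjamini-Hochberg over 26170 probe sets at a threshold of 0.05. Errors of changes are standard errors of the fit. The number of arrays limits the precision. The fit was tested on simulated data.

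The members and lists were chosen with earlier results of these data known. The naming rule took all 10 members, each by its brightest tested probe set, up to 4 genes per list with the smallest p, and for Dbp the 5 most and 5 least similar genes. Deviations of equally numbered denervated and innervated control arrays correlated at 0.11, 0.22 and 0.30, and those in MCK::cre muscle at 0.031 and 0.052. Arrays of different genotype, which cannot share a mouse, reached 0.18 (innervated MCK::cre 1 with innervated control 2). Denervated and innervated control arrays of unequal number correlated at -0.24 to 0.038, below those of equal number. Deviations within a group cancel, so these values are not independent of each other. Whether the numbers mark pairs was not settled by these values. The main fits and the permutation test did not pair arrays, and the replicate number was a block only among the alternatives. Alternatives covered the pseudocount, filter, scaling, variance trend, replicate block, choice of probe set, 3' to 5' ratio and each array left out. No pair of arrays had an exactly equal signal at any probe set. Promoter sequences are from RefSeq (GRCm38.p6).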

Additional observations from a re-analysis of the deposited data

How the results depend on the processing

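Over 470 recomputed denervation changes of single members, 428 kept their direction and side of the threshold, 14 lost and 9 gained a call without turning, and 19 turned sign; of these 19, 2 also lost a call (Per3 and Nr1d2) and 1 gained one (Tef), all with spike-in centring in control muscle. Among the 4 called members sign turned only with spike-in centring in control muscle. The count of members changed by denervation was 4 in each genotype; without single arrays it ranged from 3 to 4 in MCK::cre and from 3 to 5 in control muscle, and it was 0 each time for genotype in denervated and innervated muscle and for the interaction. The replicate block gave 4 members in MCK::cre and 5 in control muscle, where Per1 was added (log2 change 0.50), and 5 when only the 6 control arrays were blocked, an alternative chosen after seeing the data; it changed no other call of a member. Median scaling, which moved the median of all genes to 0.29, left 2 members in MCK::cre muscle, where Per3 (-0.49, limma adjusted p = 0.0823) and Nr1d2 (-0.32, limma adjusted p = 0.159) lost their calls and Per2 (0.24) and Nr1d1 (0.079) turned sign. The 3' to 5' ratio as covariate, whose values do not overlap between denervated and innervated arrays, left 1 member in MCK::cre (Clock) and 2 in control muscle (Clock and Nr1d2), and turned Per2 in control (-0.017) and Per1 (-0.059) and Dbp (-0.15) in MCK::cre muscle; the cause was not tested. Spike-in centring turned Per3 (0.19), Cry1 (0.38), Nr1d1 (0.61), Nr1d2 (0.10), Dbp (0.61) and Tef (0.73) in control and Per2 (0.41), Cry1 (0.085) and Nr1d1 (0.25) in MCK::cre muscle, each below a median of all genes of 0.82 and 0.46 that the centring itself sets, and left Clock and Cry2 as the 2 calls shared with the deposited scaling, adding Per1 and Tef in both genotypes and Per2 in control muscle. Of all 26170 tested probe sets, spike-in centring called 7986 for denervation in MCK::cre and 15569 in control muscle. It called 1 member, Per2, between genotypes in denervated muscle (-0.91, limma adjusted p = 0.0333), where it set the median of all genes to -0.37. Fits on only the groups compared ended the Cry2 call in control muscle (limma adjusted p = 0.0718, 3 members left). The fit on the 6 denervated arrays also called 1 member there, Dbp (0.60 ± 0.13, limma adjusted p = 0.0453), against 0.60 ± 0.20 in the main fit. The share of all genes that it called is not given here. That setting was not run for the interaction, which needs all arrays. The mean over a gene's probe sets turned Per2 in control (-0.011) and Tef in MCK::cre muscle (-0.19). Leaving out denervated MCK::cre 3 or innervated MCK::cre 2 turned Per2 in MCK::cre muscle (0.043 and 0.078), whose change ranged from -0.20 to 0.078 without single arrays, and leaving out innervated MCK::cre 1 turned Dbp there, with a range of -0.054 to 0.62; none of these was called. Members at an exact permutation p under 0.05 numbered 6, also with another pseudocount, and 5 with quantile normalization; with spike-in centring they numbered 6, but Per3 (exact permutation p = 0.695), Nr1d2 (0.81) and Cry1 (0.05) left and Per2, Dbp and Tef entered. Signals near the trp controls limit the low probe sets of Per3, Bhlhe41 and Arntl2.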

Other observations

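A second Nr1d2 probe set and a second Tef probe set moved together between arrays of one group. The suffix of this Tef probe set marks a design that can bind related transcripts. The Nr1d2 probe set read 3208, 4479 and 1569.97 in denervated control muscle, against 5690.2, 12034 and 2341 in innervated control muscle. The Tef probe set read 5032, 4822 and 1652 in denervated control muscle, against 3353, 8894 and 1633 in innervated control muscle. Both were lowest on the third array of each control group, and their deviations from the group means correlated at 0.95 over the 11 arrays, against 0.32 for the Nr1d2 and 0.50 for the Tef probe set with the brightest one of its gene. Among 26169 other tested probe sets, 747 had deviations from the group means that correlated above 0.9 with those of that Nr1d2 probe set. The Tef probe set was only at rank 197 in that order, so the likeness was not particular to it. The Nr1d2 and Tef probe sets were picked after their values were seen.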
